A study of Mus musculus with 8 samples.

Results

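The 10 dual-specificity MAP kinase phosphatases Dusp1, Dusp2, Dusp4, Dusp5, Dusp6, Dusp7, Dusp8, Dusp10, Dusp14 and Dusp16 were followed in 8 mouse mammary tumours. They were chosen by name, and their probes are all non-control probes whose RefSeq accession belongs to one of these genes. This gave 11 of the 55681 probes on the array and 10 of 20145 named genes. Dusp16 had 2 probes and each other gene had 1. All 11 probes were well above background on all 8 arrays, so a filter on dim probes removed none of them.

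The tumours grew from cells of the mouse mammary carcinoma line 4T1, placed in the no. 3 fat pad of BALB/C females that were 6 to 8 weeks old. Adenoviral-PRH had been put on the cells of 4 tumours and empty adenovirus on those of 4 control tumours, for 24 h and with 50 infectious units a cell, and both sets were collected 22 days after injection. Hhex is the gene that encodes PRH, a homeodomain transcription factor. Cells of both groups thus carried adenovirus. Tumours carry the numbers 1, 2, 3 and 5 in both groups. The labels name whole tumours in one place and endothelial isolates in another, and a human array although the probes carry mouse accessions. Of the marker genes looked at, 7 of 7 epithelial and 7 of 7 endothelial ones were well above background on all 8 arrays. The same held for all tested T cell, macrophage, neutrophil, fibroblast and skeletal muscle markers, but not for all B cell, NK cell or adipocyte ones. These counts therefore do not tell which material was used.

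MAP kinases (ERK, JNK and p38) are switched on when a kinase phosphorylates both a threonine and a tyrosine of their activation loop. The dual-specificity MAP kinase phosphatases remove both phosphates and so end the signal. Several of their genes are themselves switched on by MAP kinase activity, which makes them negative feedback regulators and their transcripts readouts of recent signalling. Some act in the nucleus (Dusp1, Dusp2, Dusp4, Dusp5), some in the cytoplasm with a strong preference for ERK (Dusp6, Dusp7), and some act mainly on JNK and p38 (Dusp8, Dusp10, Dusp16). Dusp14 is a small phosphatase without the amino-terminal MAP kinase binding domain of the others.

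Of the 11 probes, 2 fell in PRH-labelled tumours, those of Dusp1 and Dusp14, and 0 rose (limma, adjusted p below the threshold of 0.05). Without adjustment 5 probes had p under 0.05, all lower: Dusp1, Dusp2, Dusp8, Dusp10 and Dusp14. That is 45.5% lower and 0 higher, against 16.3% lower and 22.9% higher over all probes at the same cut. Over the 16377 named genes, each by its brightest probe, it was 21.9% lower and 16.5% higher. Across the array 10.1% of the 39463 tested probes were called lower and 16.1% higher, so 18.2% of the phosphatase probes stood against 10.1%, and 1 probe alone is 9.09% of 11. The groups did not overlap, with PRH-labelled tumours lower, for 3 of 11 probes (Dusp1, Dusp2, Dusp14), against 12.7% of all probes, and for 0 with PRH-labelled tumours higher, against 18.8%. The median difference over the 11 probes was -0.38, against 0.22 over all tested probes and -0.02 over named genes (log2, PRH-labelled minus control). The difference was below 0 for 6 of 11 probes, against 39.5% of all probes. Over all probes 10327 (26.2%) passed in either direction. Each array read an extract of many cells, in which fewer cells of a type and less RNA per cell cannot be told apart.

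Some features of the whole series bear on these values. Hhex itself stood at -1.67 ± 0.14 in PRH-labelled tumours and at -0.58 ± 0.20 in control tumours (log2 over the 75th percentile of each array, the scale of every level given here, mean ± SD, n = 4 each). It was thus lower under the PRH label. Whether its probe detects the PRH transcript of the virus was not tested, so these values do not settle the labels. Every direction here is that of the label. On the only slide, PRH arrays all had the first position number 1 and control arrays 2, so the effect of that position cannot be told apart from that of the group. The 75th percentile of the signal used for scaling was lower on PRH-labelled arrays (722.4 ± 41.2, against 1094 ± 131 on control arrays; SD, n = 4 each; p = 0.0286 by an exact permutation test). The split of calls hung on the scaling, with 6354 probes higher and 3973 lower in the main scaling, 3118 and 9859 with arrays centred on their medians, 4468 and 6224 with quantile scaling, 3919 and 6139 with normexp background correction, and 3989 and 5886 in the authors' values. The median difference of all probes was 0.22, -0.25, 0.01, 0.01 and 0.02 in these 5. The control 1 and control 3 tumours stood apart from the other control tumours in some marker lists. In control 1 the mean B cell marker level was 2.22, against -4.01 to -3.25 in the other control tumours, and the adipocyte marker level was 2.39, against -3.98 to -1.20. In control 3 the neutrophil marker level was -0.51, against 1.81 to 2.85 in the other control tumours, the endothelial one 0.10, against 0.85 to 1.43, and the epithelial one 3.85, against 4.33 to 4.73. For the 11 phosphatase probes, calls that change without either tumour are given without it.

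The promoters of 9 of the 10 genes were matched by symbol in RefSeq (GRCm38.p6), and the 250 bases before the annotated start were read. Those of 4 genes are shown: the 2 genes that were called, the only other one with a full cAMP response element, and the only one with a CArG box. Capitals mark the core of the cAMP response element, TGACG, on either strand, the full element TGACGTCA (made of 2 overlapping cores), and the CArG box, which serum response factor is known to bind.
Dusp1 (chr17:26508473-26508722, minus strand): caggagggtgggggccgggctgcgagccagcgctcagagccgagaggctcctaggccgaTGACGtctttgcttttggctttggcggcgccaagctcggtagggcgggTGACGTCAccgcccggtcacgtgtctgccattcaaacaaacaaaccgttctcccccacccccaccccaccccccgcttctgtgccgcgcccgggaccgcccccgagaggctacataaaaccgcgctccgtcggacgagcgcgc
Dusp14 (chr11:84068358-84068607, minus strand): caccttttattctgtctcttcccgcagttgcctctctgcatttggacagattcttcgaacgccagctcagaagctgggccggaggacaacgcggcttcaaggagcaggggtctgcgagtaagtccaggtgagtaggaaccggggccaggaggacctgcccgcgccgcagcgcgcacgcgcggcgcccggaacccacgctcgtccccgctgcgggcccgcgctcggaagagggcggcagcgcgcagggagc
Dusp8 (chr7:142095285-142095534, minus strand): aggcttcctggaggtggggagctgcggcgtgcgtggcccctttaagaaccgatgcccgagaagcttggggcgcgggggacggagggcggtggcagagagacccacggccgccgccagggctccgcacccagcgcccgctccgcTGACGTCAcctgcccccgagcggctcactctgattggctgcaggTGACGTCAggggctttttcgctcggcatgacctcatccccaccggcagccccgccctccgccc
Dusp5 (chr19:53528895-53529144, plus strand): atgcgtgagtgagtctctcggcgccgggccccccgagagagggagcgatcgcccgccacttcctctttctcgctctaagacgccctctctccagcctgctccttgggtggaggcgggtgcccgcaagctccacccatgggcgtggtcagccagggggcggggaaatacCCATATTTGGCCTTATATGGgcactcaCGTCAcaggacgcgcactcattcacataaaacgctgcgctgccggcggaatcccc
Dusp1 held 1 full element, 143 bases before the start, and Dusp8 held 2, the nearer one at 63 bases. Dusp5 held 2 adjoining CArG boxes, at 82 and 72 bases, and 1 core at 55 bases. The Dusp14 window held none of these letters. Of the 9 windows, 2 held the full element, against 1.55% of 32851 RefSeq promoter windows of the same length, 4 held a core (17.8% of all), and 1 held a CArG box (1.47%). The AP-1 element TGANTCA was in 0 of 9 (6.75% of all), the homeodomain core ATTAA in 2 of 9 (Dusp6 and Dusp7, 24.9% of all) and the GC box GGGCGG in 7 of 9 (32.7% of all), each on both strands. A match of letters is a description and not a bound site.

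Of the 4 nuclear phosphatases only Dusp1 passed in the main scaling. Dusp1, an immediate early gene whose protein acts on p38, JNK and ERK, stood at 0.89, 0.65, 0.81 and 0.68 in PRH-labelled tumours 1, 2, 3 and 5, against 1.06, 1.79, 1.39 and 1.58 in control tumours 1, 2, 3 and 5 (log2). Each PRH-labelled tumour lay below each control tumour, with control 1 nearest to them. The difference was -0.70 (SE 0.178), or 1.62-fold, and passed with limma (adjusted p = 0.0255). With the mouse number as a block the adjusted p was 0.0504. Dusp1 also passed in the median-centred (-1.16), quantile (-0.62), normexp (-0.63) and authors' (-0.62) values, but not with spike-in centring (-0.83, adjusted p = 0.279), where 3 of 39463 probes passed. Without single arrays the call was kept without control 1 (-0.83, adjusted p = 0.00518) and without control 3 (adjusted p = 0.048). It was lost without PRH 1, 2, 3 or 5 (adjusted p = 0.0509, 0.0691, 0.053 and 0.0682) and without control 2 or 5 (0.0598 and 0.0715). The sign was negative in all of these fits.

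**Figure D1:**
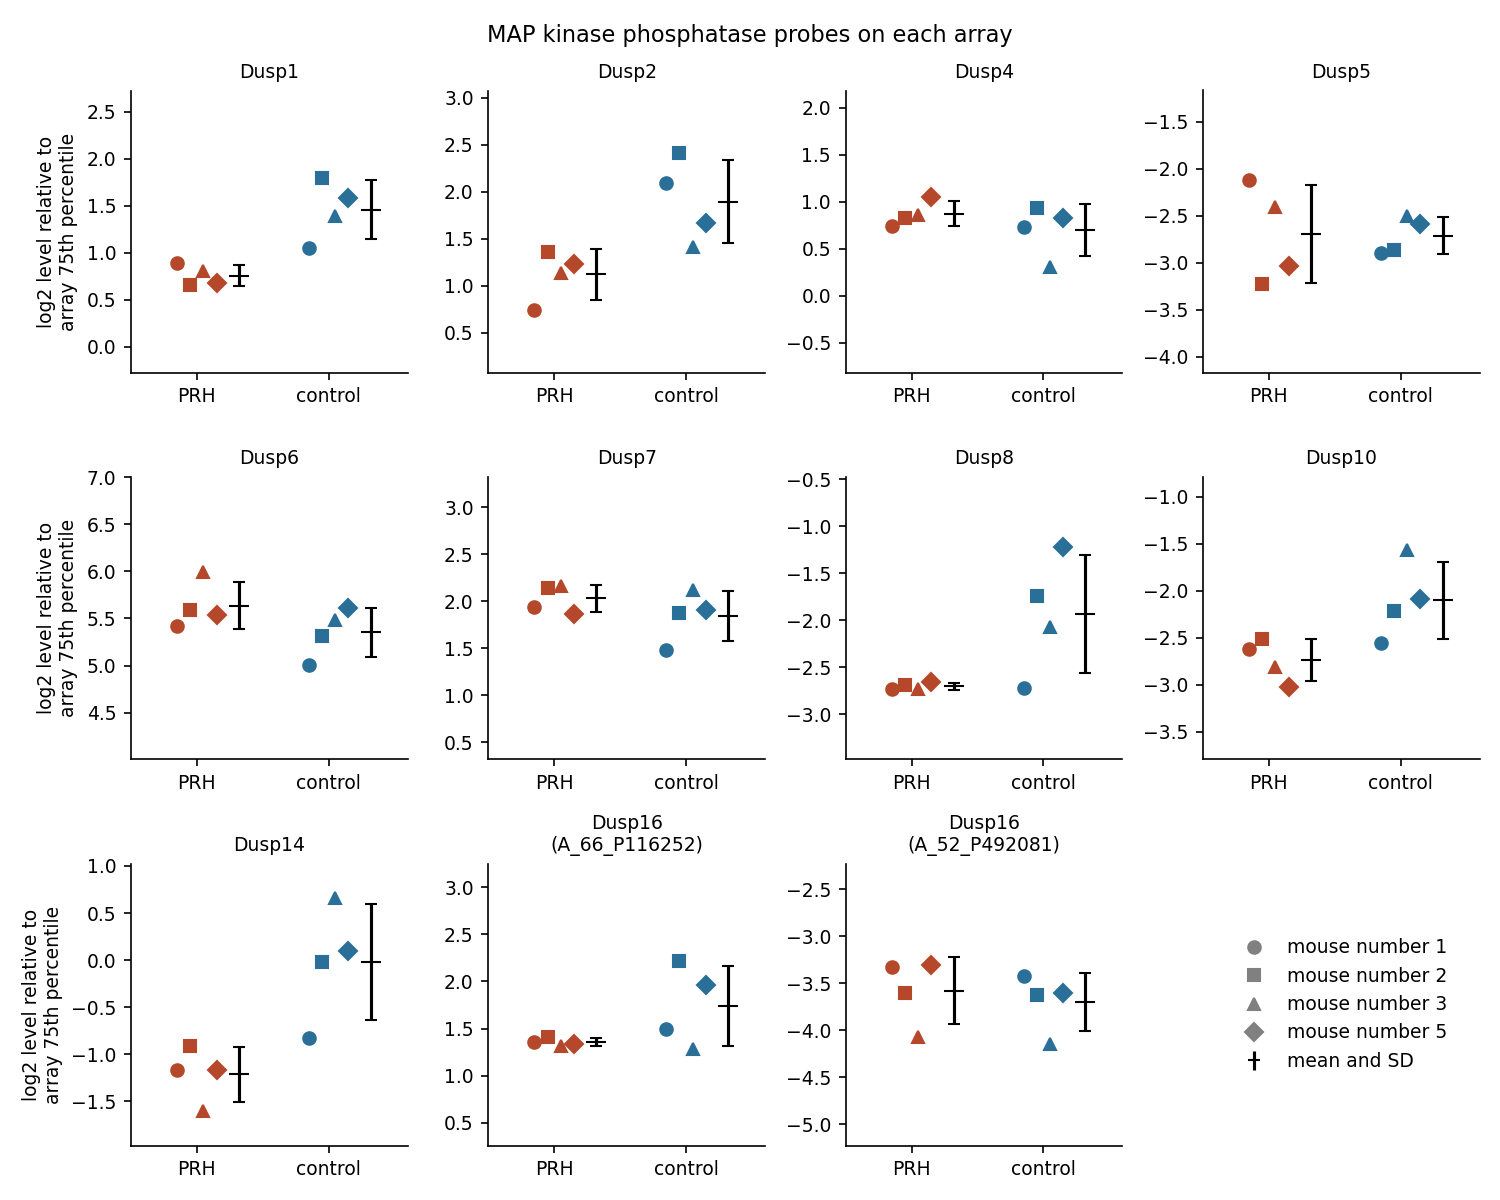
Level of each phosphatase probe on each array (log2, 75th percentile of the array at 0, each panel spanning 3 log2 units), with PRH-labelled tumours in red at the left and control tumours in blue at the right. Symbols give the mouse number and black bars the mean ± SD (n = 4 each). Dusp1, Dusp2 and Dusp14 have no PRH-labelled tumour as high as the lowest control tumour, and for Dusp8 control 1 lies among the PRH-labelled tumours.

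Dusp2, a nuclear phosphatase best known from activated lymphocytes, showed a difference of similar size that did not pass. It stood at 0.75, 1.37, 1.14 and 1.24 in PRH-labelled tumours 1, 2, 3 and 5, against 2.10, 2.41, 1.42 and 1.67 in control tumours 1, 2, 3 and 5. The groups were apart by a narrow gap between PRH 2 and control 3, and control 1 and 2 were the high ones. The difference was -0.78 (SE 0.249, adjusted p = 0.0549). It passed after median centring (-1.24, adjusted p = 0.0148), among the probes above background on all 8 arrays (adjusted p = 0.0415) and without control 3 (-0.94, adjusted p = 0.0362), and in none of the other 15 alternative fits.

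Lymphocyte markers are set beside Dusp2 because of where it is known to act. The mean level of 7 T cell marker genes lay between 0.73 and 1.17 in PRH-labelled tumours and between 0.60 and 1.83 in control tumours, with 0 of 7 called, and the highest value was that of control 1. The B cell markers (3 of 4 tested) lay between -3.14 and -2.96 in PRH-labelled tumours and between -4.01 and 2.22 in control tumours, again highest in control 1. Control 2, which had the highest Dusp2 level, had a T cell marker level of 1.08 and a B cell marker level of -3.77. The part of lymphocytes in the Dusp2 values was not tested, and without control 1 the Dusp2 difference was -0.71 (adjusted p = 0.0943).

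Dusp4, a nuclear phosphatase that ERK signalling induces, and Dusp5, a nuclear phosphatase with a preference for ERK, did not pass. Dusp4 stood at 0.74, 0.83, 0.86 and 1.06 in PRH-labelled tumours 1, 2, 3 and 5, against 0.73, 0.93, 0.31 and 0.82 in control tumours 1, 2, 3 and 5. The groups overlapped, and only control 3 was clearly apart from the rest. The difference was 0.17 (95% interval -0.22 to 0.56, adjusted p = 0.466), and its sign turned after median centring (-0.29). Without control 3 the difference was 0.04.

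Dusp5 stood at -2.12, -3.22, -2.41 and -3.04 in PRH-labelled tumours 1, 2, 3 and 5, against -2.90, -2.86, -2.50 and -2.59 in control tumours 1, 2, 3 and 5. The PRH-labelled tumours lay on both sides of the controls. The difference was 0.02 (95% interval -0.60 to 0.63, adjusted p = 0.967), and it was negative in the 5 other scalings, down to -0.45 after median centring.

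The cytoplasmic, ERK-directed phosphatases did not read lower in the main scaling. Dusp6, a transcript that ERK signalling is known to induce, stood at 5.42, 5.59, 6.00 and 5.54 in PRH-labelled tumours 1, 2, 3 and 5, against 5.01, 5.31, 5.48 and 5.61 in control tumours 1, 2, 3 and 5. PRH 3 was the highest tumour and control 1 the lowest, and the others were mixed. The difference was 0.28 (95% interval -0.16 to 0.72, adjusted p = 0.303), and turned to -0.18 after median centring. In the main scaling the median difference was 0.22 over all tested probes and 0.06 over probes of like brightness.

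Dusp7, a close relative of Dusp6, stood at 1.94, 2.14, 2.16 and 1.87 in PRH-labelled tumours 1, 2, 3 and 5, against 1.48, 1.87, 2.12 and 1.91 in control tumours 1, 2, 3 and 5. The groups overlapped, with control 1 again the lowest. The difference was 0.18 (95% interval -0.21 to 0.58, adjusted p = 0.442), and 0.06 without control 1. It passed as a rise with normexp (0.34, adjusted p = 0.0439) and in the authors' values (0.35, adjusted p = 0.048), and stood at -0.28 after median centring.

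The phosphatases directed at JNK and p38 read lower in PRH-labelled tumours on 3 of 4 probes, and none passed in the main scaling. Dusp8 stood at -2.73, -2.69, -2.73 and -2.65 in PRH-labelled tumours 1, 2, 3 and 5, against -2.72, -1.74, -2.07 and -1.22 in control tumours 1, 2, 3 and 5. The PRH-labelled tumours were nearly alike, and control 1 lay among them while the other 3 control tumours were higher. The difference was -0.77 (SE 0.295, 95% interval -1.45 to -0.08, adjusted p = 0.0943). It passed in the median-centred (-1.23), quantile (-1.14), normexp (-0.78) and authors' (-0.90) values, with adjusted p between 0.0299 and 0.0387, and without control 1 (-1.03, adjusted p = 0.0101).

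Dusp10, which is known to restrain JNK and p38 in immune cells, stood at -2.62, -2.51, -2.80 and -3.02 in PRH-labelled tumours 1, 2, 3 and 5, against -2.55, -2.21, -1.56 and -2.08 in control tumours 1, 2, 3 and 5. Only control 1 reached into the range of the PRH-labelled tumours, and control 3 was the highest. The difference was -0.64 (SE 0.230, 95% interval -1.17 to -0.10, adjusted p = 0.0786). It passed in the median-centred (-1.10, adjusted p = 0.0231) and quantile (-1.03, adjusted p = 0.0248) values and without control 1 (-0.79, adjusted p = 0.0281), and without control 3 it stood at -0.46.

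The 2 probes of Dusp16, a JNK-directed phosphatase, differed in sign. Its brighter probe, A_66_P116252, stood at 1.36, 1.41, 1.32 and 1.34 in PRH-labelled tumours 1, 2, 3 and 5, against 1.49, 2.22, 1.29 and 1.96 in control tumours 1, 2, 3 and 5. Control 2 and 5 were high, and control 3 was the lowest of all 8. The difference was -0.38 (95% interval -0.88 to 0.11, adjusted p = 0.224), and it passed after median centring alone (-0.85, adjusted p = 0.0423).

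The dimmer probe of Dusp16, A_52_P492081, ranged from -4.07 to -3.31 in PRH-labelled tumours and from -4.14 to -3.42 in control tumours. Tumours with number 3 were lowest in both groups. The difference was 0.12 (95% interval -0.42 to 0.66, adjusted p = 0.713), with a negative sign in the 5 other scalings. The mean of both probes differed by -0.13 (SE 0.192, adjusted p = 0.629).

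Dusp14, the small phosphatase without the binding domain, had the largest difference of the 11 probes in all 6 scalings. It stood at -1.17, -0.91, -1.61 and -1.17 in PRH-labelled tumours 1, 2, 3 and 5, against -0.83, -0.02, 0.66 and 0.10 in control tumours 1, 2, 3 and 5. No PRH-labelled tumour reached the lowest control tumour, control 1, though PRH 2 came close to it. The difference was -1.19 (SE 0.316), or 2.29-fold, and passed with limma (adjusted p = 0.0289), also when blocked by mouse number (adjusted p = 0.0465). It also passed in the median-centred (-1.66), quantile (-1.32), normexp (-0.99) and authors' (-1.04) values, but not with spike-in centring (-1.32, adjusted p = 0.147). Without single arrays the call was kept without control 1 (-1.46, adjusted p = 0.00456) and without PRH 2 (-1.30, adjusted p = 0.0478). It was lost without PRH 1, 3 or 5 (adjusted p = 0.0655, 0.0666 and 0.0649) and without control 2, 3 or 5 (0.0691, 0.0532 and 0.0742).

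Of 10 marker lists, that of fibroblasts is set beside these calls, since it was lower in PRH-labelled tumours. Its mean level lay between 2.65 and 2.97 in PRH-labelled tumours and between 3.09 and 3.49 in control tumours, without overlap (5 of 5 markers tested, 2 lower: Pdgfra and Pdgfrb). The others were not called, with Dcn at -0.60, Lum at -0.53 and Col1a1 at 0.07. The exact permutation p was 0.0286, the smallest that 4 against 4 arrays allow, and 0.286 after Benjamini-Hochberg adjustment over the 10 lists. The part of fibroblasts in the Dusp1 and Dusp14 values was not tested. The epithelial markers lay between 4.53 and 4.95 in PRH-labelled tumours and between 3.85 and 4.73 in control tumours (7 of 7 tested, Krt18 called higher, at 0.52). Krt8 went the other way, at -0.44 without overlap (limma, adjusted p = 0.0763). The other epithelial markers lay between 0.04 (Cdh1) and 0.71 (Cldn4) and were not called.

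**Figure D2:**
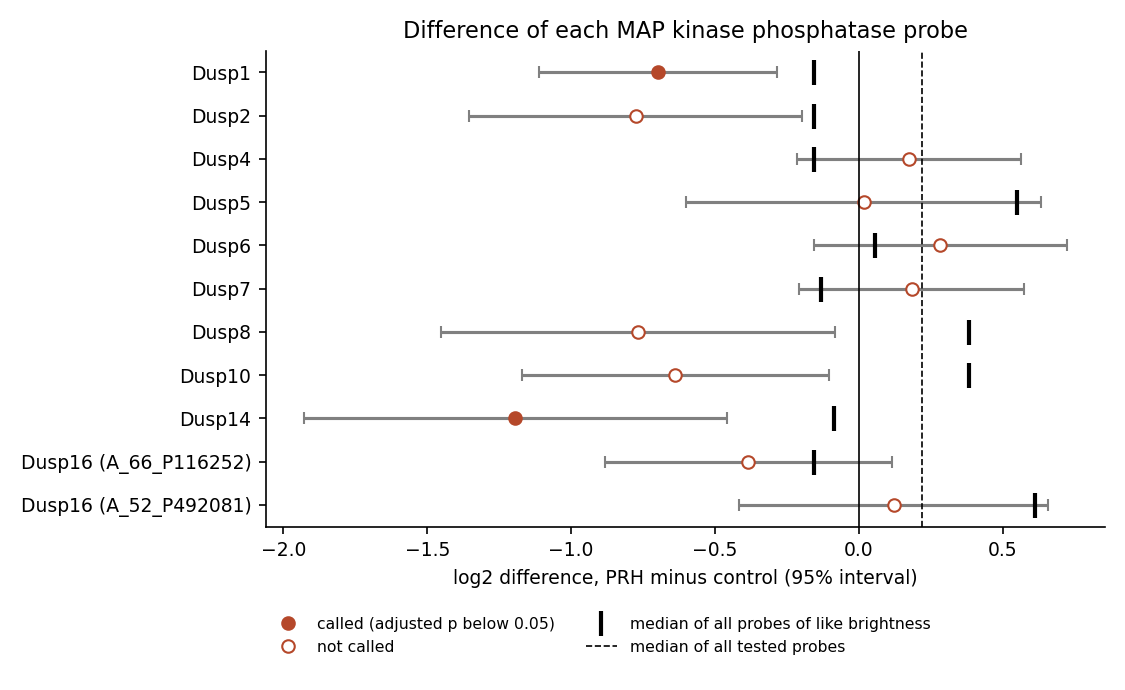
Difference of each phosphatase probe (log2, PRH-labelled minus control) with its 95% interval from limma. Filled points passed, short black bars give the median difference of all probes in the same of 10 brightness bins, and the dashed line the median of all tested probes (0.22). Dusp8 and Dusp10 lie 1.15 and 1.02 below the median of probes as bright as they are.

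The shift of all probes depended on brightness, so each probe was also set beside the probes of its own brightness bin (10 bins). The median difference was -0.16 in the bin of Dusp1, Dusp2 and Dusp4 and 0.38 in that of Dusp8 and Dusp10. Relative to the median of its own bin, Dusp8 lay at -1.15, Dusp14 at -1.11, Dusp10 at -1.02, Dusp2 at -0.62, Dusp1 at -0.54 and Dusp5 at -0.53. The dimmer Dusp16 probe lay at -0.49 and the brighter one at -0.23. Dusp4, Dusp6 and Dusp7 lay above theirs, at 0.33, 0.23 and 0.32. These values are a description without a test.

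**Figure D3:**
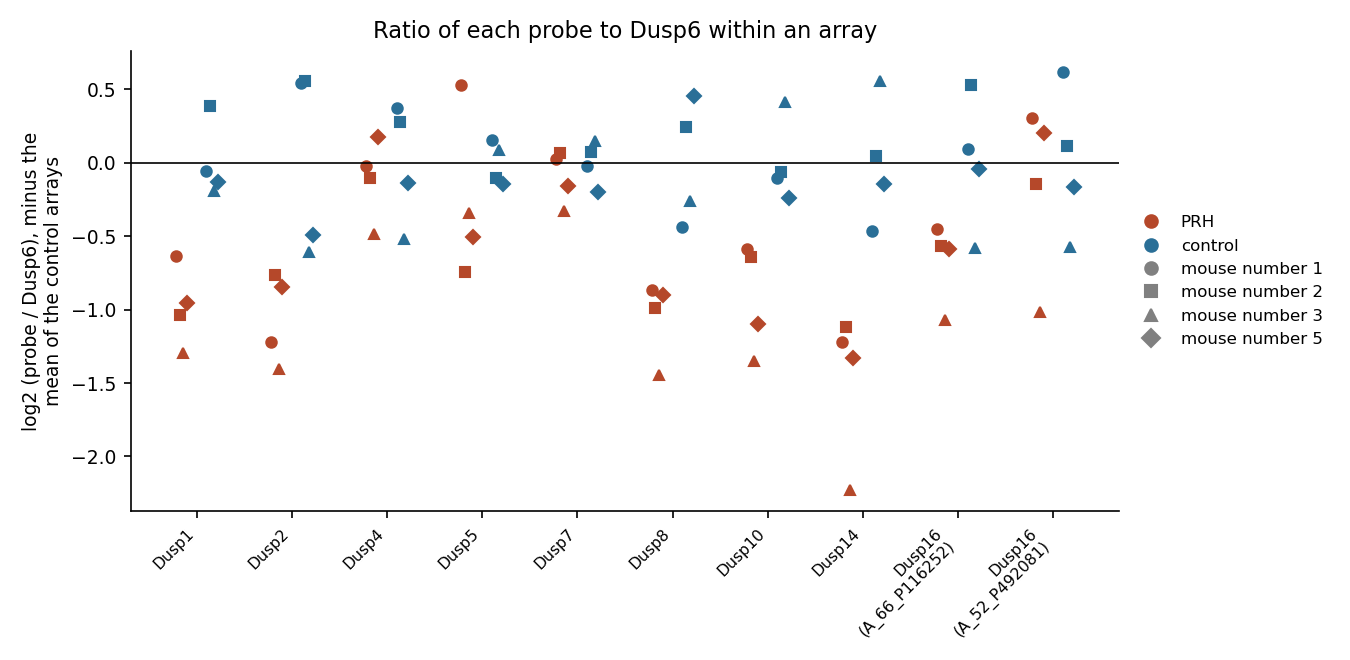
Ratio of each phosphatase probe to Dusp6 within the same array (log2, minus the mean of the control arrays), PRH-labelled tumours in red at the left of each pair and control tumours in blue at the right, with symbols for the mouse number. Dusp1, Dusp2, Dusp8, Dusp10 and Dusp14 have all 4 PRH-labelled tumours below all 4 control tumours.

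A ratio of 2 probes within an array does not change when the whole array is rescaled. Dusp6 was taken as the denominator after its values were seen. The log2 ratio of Dusp1 to Dusp6 was -4.88 ± 0.27 in PRH-labelled tumours and -3.90 ± 0.26 in control tumours (mean ± SD, n = 4 each). For Dusp14 it was -6.85 ± 0.51 in PRH-labelled tumours and -5.38 ± 0.43 in control tumours. The groups did not overlap for 5 of 10 probes, all lower in PRH-labelled tumours (Dusp1, Dusp2, Dusp8, Dusp10 and Dusp14), by 0.92 to 1.48. Among the 39462 other tested probes 20.9% were lower and 3.05% higher relative to Dusp6 without overlap. The ratio of Dusp7 to Dusp6 differed by -0.10, with overlap. Since Dusp6 had the highest difference of the 11 probes (0.28), every ratio to it is lower by that choice, and the ratios are a description only.

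**Figure D4:**
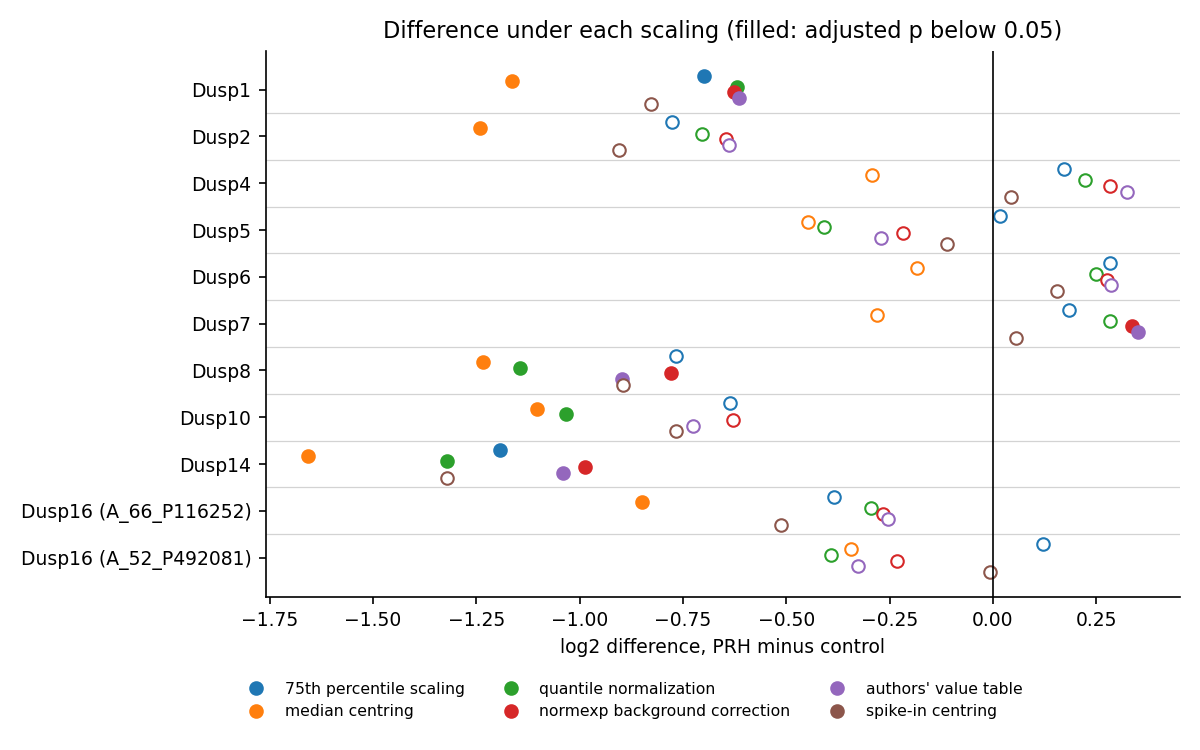
Difference of each phosphatase probe (log2, PRH-labelled minus control) under 6 scalings, filled where limma's adjusted p was below 0.05. Dusp1, Dusp2, Dusp8, Dusp10, Dusp14 and the brighter Dusp16 probe are negative under all 6, while the sign of the other 5 probes depends on the scaling.

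Across scalings the count of the 11 probes called lower was 6 in the median-centred values, where 25% of all probes were called lower, 4 in the quantile values (15.8%), 3 with normexp (15.6%), 3 in the authors' values (14.9%) and 0 with spike-in centring (0.0076%). Only Dusp7 was called higher, with normexp (9.93% of all probes higher) and in the authors' values (10.1%). Among probes above background on all 8 arrays 3 were called lower (14% of those probes), and in the blocked fit 1 was, Dusp14 (9.59%). Without control 1 the count was 4 (15.6% of all probes), namely Dusp1, Dusp8, Dusp10 and Dusp14. It was 2 without control 3 (Dusp1 and Dusp2, 6.85%), 1 without PRH 2 (Dusp14, 5.77%), and 0 without PRH 1, 3 or 5 (5.54%, 6.15% and 5.69%) and without control 2 or 5 (5.48% and 5.21%).

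The kinases that these phosphatases oppose were followed as lists, each gene by its brightest probe. Of 16377 named genes 13.1% were called lower, and 1756 higher (without adjustment, 21.9% lower and 16.5% higher), with a median difference of -0.02. Of 11 genes of the ERK module 1 was lower and 0 higher (2 and 0 without adjustment), with a median of -0.18. Sos1, an exchange factor that loads Ras with GTP, fell by 1.12 (SE 0.326, adjusted p = 0.0404), with overlapping groups. Braf, a kinase upstream of ERK, stood at -0.36 (adjusted p = 0.0514), with its other probe at 0.61. Mapk3, the gene of ERK1, stood at 0.34 (adjusted p = 0.136, other probe at 0.21), and Rps6ka3, a kinase that ERK activates, at -0.29 (adjusted p = 0.143, other probe at -0.62). Rps6ka3 passed in 2 of 18 alternatives, after median centring (-0.76, adjusted p = 0.0175) and as the mean of its probes (-0.46, adjusted p = 0.0326). The Sos1 call was kept without control 1 alone, the highest adjusted p being 0.101 (PRH 1 left out), and it also failed with normexp, in the authors' values and with spike-in centring.

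Of 18 genes of the p38 and JNK modules 3 were lower and 0 higher (5 and 1 without adjustment), with a median of -0.06. Mapk9, one of the JNK genes, fell by 0.80 (SE 0.176, adjusted p = 0.0153), with its other probe at -0.03. Map2k3, a kinase that activates p38, fell by 0.58 (SE 0.164, adjusted p = 0.0366), and Mapk14, the main p38 gene, by 0.46 (SE 0.134, adjusted p = 0.0405), with its other probe at 0.11. Mapkapk3, a kinase downstream of p38, stood at -0.35 (adjusted p = 0.114). With the mouse number as a block Map2k3 (adjusted p = 0.0601) and Mapk14 (0.0514) were lost, and Mapk8, another JNK gene, passed as higher (0.78, adjusted p = 0.0313, against 0.256 without the block). Mapk9 was kept in all 8 fits without 1 array but not as the mean of its probes (adjusted p = 0.0847), while Map2k3 and Mapk14 were kept without control 1 alone, the highest adjusted p being 0.0978 for Map2k3 (control 5 left out) and 0.0999 for Mapk14 (PRH 1 left out). Mapk14 passed in 4 of 18 alternatives, and as the mean of its probes it stood at -0.17 (adjusted p = 0.419).

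**Figure D5:**
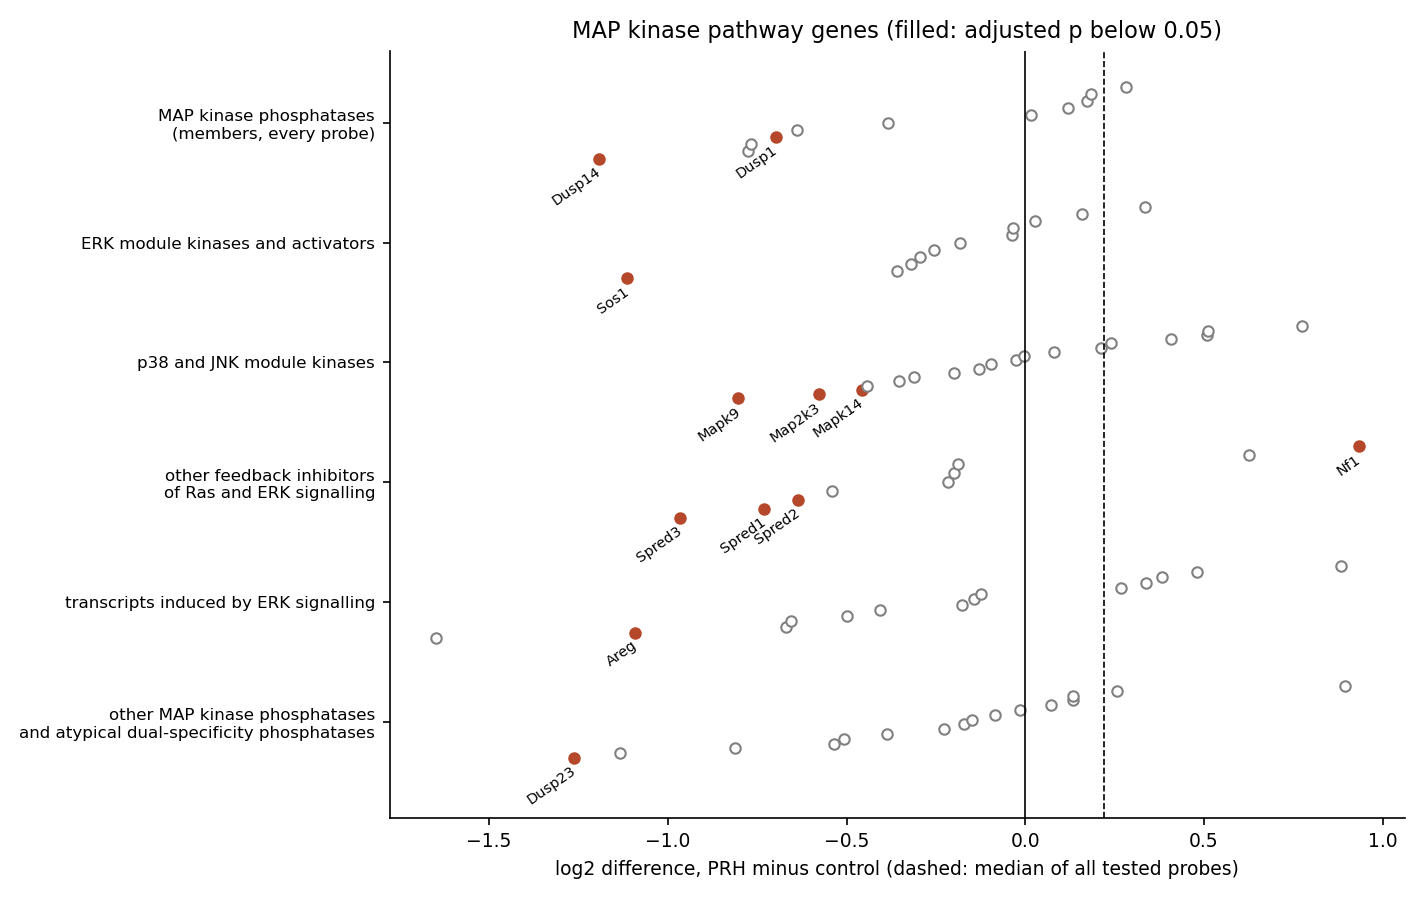
Differences (log2, PRH-labelled minus control) of the 11 phosphatase probes and of the genes of 5 MAP kinase pathway lists, each gene by its brightest probe, with filled and named points where limma's adjusted p was below 0.05. All named points lie left of 0 except Nf1.

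Of 9 tested genes among 11 other inhibitors of Ras and ERK signalling, 3 were lower and 1 was higher (3 and 1 without adjustment), with a median of -0.22. The 3 were the Spred genes, whose proteins dampen signalling between Ras and ERK. Spred1 stood at 0.29 ± 0.10 in PRH-labelled tumours and 1.02 ± 0.22 in control tumours (adjusted p = 0.0117), Spred2 at -1.26 ± 0.18 in PRH-labelled and -0.63 ± 0.24 in control tumours (adjusted p = 0.0274), and Spred3 at -3.87 ± 0.08 in PRH-labelled and -2.91 ± 0.42 in control tumours (adjusted p = 0.016), all without overlap (n = 4 each, limma). Nf1, which turns Ras off, rose by 0.93 (SE 0.246, adjusted p = 0.0287) with overlapping groups, and not after median centring. Spred1 and Spred3 were kept in all 8 fits without 1 array. Spred2 was kept without PRH 2, control 1 or control 3, with adjusted p up to 0.0762 (without PRH 5), and Nf1 without PRH 3 or control 1, with adjusted p up to 0.0763 (without PRH 5).

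Of 14 transcripts known to be induced by ERK signalling 1 was lower and 0 were higher (5 and 1 without adjustment), with a median of -0.16. Areg, the EGF receptor ligand amphiregulin, fell by 1.09 (SE 0.300, adjusted p = 0.0326), and was kept without PRH 3, control 1 or control 2, with adjusted p up to 0.0864 (without control 5). Fosl1, an AP-1 subunit, stood at -1.65 (SE 0.564, adjusted p = 0.067), the early gene Ier2 at -0.41 (adjusted p = 0.0637) and Plaur, the urokinase receptor gene, at -0.65 (adjusted p = 0.0689). These genes are named for their small p and all read lower, whereas the difference was below 0 for 9 of the 14 and above 0 for the rest.

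Of 16 tested genes among 17 other MAP kinase phosphatases and atypical dual-specificity phosphatases, 1 was lower and 0 were higher (4 and 0 without adjustment), with a median of -0.16. Dusp23, a small atypical phosphatase above background on 3 of 4 PRH-labelled and 4 of 4 control arrays, fell by 1.26 (SE 0.353, adjusted p = 0.035). Its size depended on the background correction, with -0.57 by normexp, and it was -0.90 without PRH 5, the array on which it was not above background. The call was kept without PRH 3, PRH 5 or control 1, with adjusted p up to 0.087 (without control 5). Dusp12 stood at -0.51 (adjusted p = 0.0524, other probe at -0.60). Dusp18 stood at -0.81 (adjusted p = 0.0573, other probe at -1.72), and passed in 4 of 5 other scalings and as the mean of its probes (-1.27, adjusted p = 0.019). Ptpn7, a tyrosine phosphatase of MAP kinases in blood cells, stood at -0.53 (adjusted p = 0.0883, other probe at 0.23). With the mouse number as a block Styxl1, a catalytically inactive relative of this family, passed as higher (0.90, adjusted p = 0.0284, against 0.218 without the block).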

How the data were processed

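Total RNA from 8 tumours (or isolates from them) was hybridised to 1-colour (Cy3) arrays. Scanner intensities were deposited as written by Feature Extraction 10.7.3.1 (Agilent), per the file headers, for a design placed on mm9, and the submitters' processing notes name version 9.1. The authors' value table holds intensities on a linear scale (array medians 123.8 to 125.9, rank correlation with the scanner values 0.989 to 0.995), normalised in R per the labels, with background correction and offset unknown.

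The processed signal was taken to log2, and the 75th percentile of the non-control probes was subtracted on each array. Outlier spots were left out where a probe had others, and spots were averaged. No spot was saturated. Probes well above background on at least 4 of 8 arrays (39463 of 55681) were tested with limma 3.58.1 in R 4.3.3 (group alone, two-sided, Benjamini-Hochberg over all tested probes, threshold 0.05), which was tested on simulated data. The number of arrays limits the precision, and each p-value rests on the spread among 4 arrays a group. Accessions were matched to RefSeq symbols of GRCm38.p6 (26582 probes matched). The members and lists were chosen with earlier results of these data known. Named genes are all members, Hhex, up to 4 genes with the smallest p of each pathway list, and marker genes beside a member's result. Some genes of the ERK module are not reported here and were left out of its counts. Mapk8 and Styxl1 were named after their values were seen.

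Alternatives were median centring, quantile normalization, normexp (offset 50, on the median spot signal in place of the planned mean signal) with quantile normalization, the authors' values, centring on 7 spike-in probes, 2 other filters, 1 value a gene, the mouse number as a block, and leaving out each array. Same-numbered arrays deviated together (r = 0.20, 0.42, 0.65 and 0.26 for numbers 1, 2, 3 and 5), each above 0.1, so the numbers were used as the block. The main fit leaves them out. Arrays with different numbers were not compared in this way, so these values do not show that a number stands for the same animal. Per the labels the numbers are mouse numbers, and they also follow the second position number on the slide.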

Additional observations from a re-analysis of the deposited data

Results flagged for a closer look

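Of 64 groups of 4 arrays (each named gene in each group by itself), 1 had an array far from the others by Dixon's test, where chance gives about 1 in 20. Rps6ka3 stood at 0.0925 in control 5, against 0.353 to 0.382 in the other control tumours (log2). None of the 11 phosphatase probes had such an array in either group.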

How the results depend on the processing

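The count of phosphatase probes called lower, 2 of 11 in the main fit, was 6 in the median-centred values, 4 in the quantile values, 3 with normexp, 3 in the authors' values, 0 with spike-in centring and 1 with the mouse number as a replicate block, and ranged from 0 to 4 without single arrays. It was lowest without PRH 1, 3 or 5 or control 2 or 5, and highest without control 1. The count called higher was 1 with normexp and 1 in the authors' values (Dusp7 in both) and 0 in the other fits. Of all 39463 probes 10327 passed in the main fit, 3 with spike-in centring (8023 had an unadjusted p under 0.05 there), 13560 with the replicate block, and 6591 to 13355 without single arrays. The cause of these changes was not tested. The block ended the calls of Dusp1, Map2k3 and Mapk14 and no other call named as lower or higher. No difference called in the main fit changed sign in any alternative. Dusp7, called higher in the fits named above, stood at -0.28 in the median-centred values. Spike-in centring ended the calls of all members, pathway genes and Hhex named as called. Over the single genes and list counts, 486 values kept their side of the threshold or a count within 1.5 times of that in the main fit. A call was lost by 81 and gained by 40, and 55 list counts moved by more than 1.5 times. Among the 486 are differences that were not called and changed sign, such as Dusp4 at 0.17 in the main fit and -0.29 after median centring.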

Other observations

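Most phosphatase probes varied more among control tumours than among PRH-labelled tumours, as did most of all tested probes. The SD was larger in control for 9 of 11 probes, against 62.6% of all tested probes. For Dusp8 the SD was 0.04 in PRH-labelled tumours and 0.63 in control tumours, and for the brighter Dusp16 probe it was 0.04 in PRH-labelled tumours and 0.43 in control tumours (log2, n = 4 each). Control 1 was the lowest control tumour on 7 of 11 probes and control 3 on the other 4. In PRH-labelled tumours the lowest value was spread over all 4 tumours, with 2 to 4 probes each.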
